A study of Homo sapiens with 8 samples.

Results

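The nuclear genome encodes most subunits of the mitochondrial respiratory chain and of the ATP synthase, and these genes were followed in AB8 cells before and after induction of a CRB2 construct. The members were taken by symbol, as the protein-coding genes of the NDUFA, NDUFB, NDUFC, NDUFS and NDUFV series, SDHA to SDHD, CYC1 and the UQCR genes, the COX4I to COX8 genes, and the ATP5F, ATP5M and ATP5P genes. This gave 90 genes among the 58395 of the count table. By complex they were 40 of complex I, 4 of complex II, 10 of complex III, 17 of complex IV and 19 of complex V. AB8 is a human cell line derived from podocytes, the filtering epithelial cells of the kidney glomerulus. All 8 libraries came from AB8 cells modified with the inducible plasmid pIND21_hCrb2+GFP_S267A, taken at passages 3 to 8 after the modification. The 4 non-induced libraries came from these cells without doxycycline, and the 4 induced libraries from the same kind of cells given doxycycline for 48 h. Replicates were numbered 1 to 4 in both groups, and the labels do not say whether they were separate cultures. Doxycycline, raised CRB2, GFP and the S267A change cannot be told apart here, since no library had the drug without the construct or an unchanged CRB2.

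Complex I (NADH dehydrogenase) and complex II (succinate dehydrogenase) pass electrons to ubiquinone, complex III passes them to cytochrome c, and complex IV (cytochrome c oxidase) passes them to oxygen. Complexes I, III and IV pump protons across the inner mitochondrial membrane, and complex V, the ATP synthase, uses the gradient to make ATP. The catalytic core of complexes I, III, IV and V is built partly from subunits encoded by mitochondrial DNA, while complex II is encoded wholly in the nucleus.

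Libraries held 16829454 to 23081616 counted reads and 23636 to 24545 detected genes. CRB2, the induced gene, was counted 167, 557, 565 and 364 times in the non-induced libraries, in the order of their numbers, and 34245, 97191, 96566 and 85310 times in the induced ones, so every induced library carried its label's signal (edgeR quasi-likelihood test, log2 change 7.51 ± 0.52 (SE), adjusted p = 0.0016). Induced library 1 was the lowest of its group and non-induced library 1 the lowest of the other. Of 11 podocyte markers 7 were tested, while NPHS1, a defining podocyte gene, had at most 2 reads in any library. The 5 tubule markers summed to 0.327 to 0.547 CPM (read counts scaled to the library's size) in non-induced and 0.476 to 0.911 CPM in induced libraries, with LRP2 and UMOD at 0 everywhere. The 4 leukocyte markers summed to 3.41 to 3.92 and 2.19 to 2.94 CPM, with PTPRC at or near 0, and the 3 mesangial markers to 12.7 to 15.6 and 14.1 to 21.8 CPM.

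Nearly all of the chain was transcribed in these cells. At least 1 read fell on 84 of the 90 members, and 81 had enough reads to be tested: 38, 4, 10, 12 and 17 of complexes I to V. In non-induced cells, scaled to the length of a representative transcript, the highest level was that of ATP5F1B, the catalytic beta subunit of the ATP synthase, at 459 ± 12.97 CPM per kilobase (SD, n = 4). COX4I1, a regulatory subunit of cytochrome c oxidase, followed at 440 ± 10.9 CPM per kilobase, a difference smaller than the sum of the SDs. UQCRH, the hinge protein that helps cytochrome c dock on complex III, stood at 302 ± 19.3 CPM per kilobase and COX7C at 275 ± 16.1. NDUFS5, an accessory subunit of complex I, stood at 245 ± 27.7 and overlapped COX7C within their SDs. NDUFB9, the next of complex I, had 181 ± 19.3 CPM per kilobase, and in complex II SDHB, the iron-sulfur subunit, had 80.3 ± 3.52 and SDHA, the flavoprotein, 60.8 ± 1.57. The order rests on the transcript chosen: over all annotated exons COX4I1 had 65.0 CPM per kilobase and ATP5F1B 364. The low ranks of SDHC (4.44 CPM per kilobase), NDUFA9 (2.85) and ATP5MC3 (31.6) rest on representative transcripts of 13566, 8363 and 5484 bases.

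Tissue-restricted isoforms had no or few reads. COX4I2, COX6A2, COX7A1, COX7B2 and COX8C had 0 reads in all 8 libraries, which allows up to 3 reads per library or 0.13 to 0.178 CPM (counting error only). COX6A2 and COX7A1 are known as the heart and skeletal muscle isoforms, and COX7B2 and COX8C as testis isoforms. Their common counterparts were all present, with non-induced levels per kilobase of 71.2 ± 5.36 CPM for COX6A1, 148 ± 7.04 for COX7A2, 26.9 ± 2.19 for COX7B and 208 ± 20.4 for COX8A. COX6B2, the testis form of a subunit that bridges the oxidase dimer, was detected at 0.963 ± 0.58 CPM per kilobase against 162 ± 10.9 for COX6B1. Another same-strand gene covers 33.9% of the representative transcript of COX6B2, so its level may be undercounted. COX6A1 (30.6%) and COX8A (34.5%) are covered to a similar degree and had more reads. NDUFA4L2, a hypoxia-responsive relative of NDUFA4, had 2 to 13 reads per library and was not tested. NDUFA4 itself, since assigned to cytochrome c oxidase although named for complex I, stood at 50.7 ± 2.34 CPM per kilobase. The readthrough genes NDUFC2-KCTD14 and ATP5MF-PTCD1 had 0 and at most 3 reads.

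Some members of complex I had few counted reads where another annotated gene covers the same bases. NDUFV2, a core subunit of complex I, had 20 to 42 reads per library, and 82.9% of its representative transcript lies within a same-strand gene, AP005263.1, that is itself at 0. NDUFA7 had 8 to 19 reads and a shared part of 75.9%, NDUFB8 had 231 to 309 reads and 71.7%, and NDUFA13 had 101 to 150 reads and 44.1%. Other members with a large shared part had more reads: ATP5PO 855 to 1158 (70.3% shared), NDUFA11 551 to 674 (67.0%) and ATP5MF 1172 to 1367 (46.2%). How the counting treated reads in more than 1 gene is not given in the sources used here, so the levels of these members are uncertain. UQCRHL, an intronless copy of UQCRH, shares sequence with it: 19.6% of the 75-base windows of UQCRH also occur in UQCRHL, and reads there could be split between them.

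After induction most members sat slightly lower. The fitted log2 change was below 0 in 71 of 81 tested members (49.8% of all 15637 tested genes), with a median of -0.07 against 0.00 over all tested genes. In the comparison without pairing (edgeR quasi-likelihood test, Benjamini-Hochberg FDR 0.05) 0 members passed, where 0.0384% of all tested genes were called, 0.0064% lower and 0.032% higher. The lowest adjusted p among members was 0.253, and 9 members had an unadjusted p under 0.05, all lower (background 9.38%, of which 4.26% lower and 5.12% higher). DESeq2 called 1 member lower, COX4I1 (adjusted p = 0.0077), or 1.19% of members, where it called 0.342% of all genes lower. Libraries with the same number deviated together (correlations of 0.648 to 0.911), and the pairing was taken from these data. The separation was not complete, since libraries with different numbers reached 0.667, above the 0.648 of number 4. With the replicate number as a block edgeR called 15 members lower and 0 higher, or 18.5% of those tested, where 6.29% of all tested genes were called lower and 7.51% higher. At an unadjusted p under 0.05 that fit had 33 members lower and 0 higher. The share of all genes at that threshold was not counted, so this count has no background to be read against. DESeq2 with the block called 5 members lower (5.95%) and 0 higher, where it called 503 of 31603 genes lower (1.59%) and 545 higher. Both DESeq2 fits took genes with any read, many of them with too few for the edgeR test, while nearly all members had enough. Their shares of members and of all genes are thus not directly comparable. Levels were lower in all 4 same-numbered pairs for 38 members (background 17%) and higher in all 4 for 1, NDUFA7 (background 18.6%). In 7 members the induced libraries all lay below the non-induced ones (background 3.22%), and in 0 all above (background 3.82%). In bulk RNA, fewer cells of a type and less RNA per cell cannot be told apart.

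**Figure D1:**
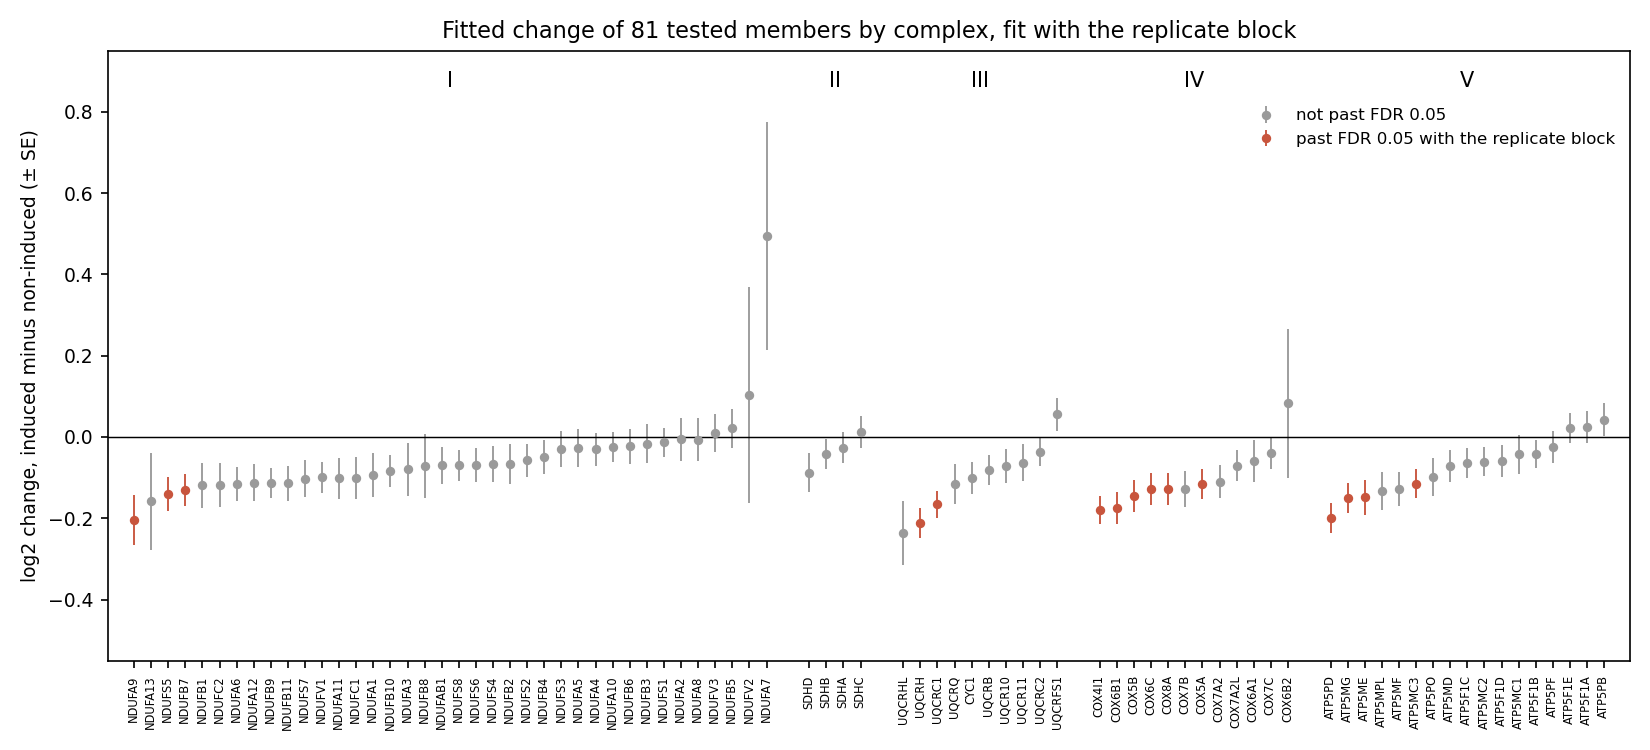
Fitted log2 change of each of the 81 tested members (y axis, induced minus non-induced, bars are SE) from the fit with the replicate block, ordered within complexes I to V. The 15 members past FDR 0.05 all lie below 0, and the wide bars belong to members with few reads such as NDUFV2 and NDUFA7.

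Libraries of 1 group differed from each other by about as much as the groups did, over the median of all members. The median deviation of the 81 members from their own 8-library mean was 0.07, -0.01, 0.01 and 0.09 (log2) in non-induced libraries 1 to 4. In induced libraries 1 to 4 it was -0.04, -0.09, -0.04 and 0.03. Induced library 4 thus lay above non-induced libraries 2 and 3, while each induced library lay below the non-induced library of its own number. Paired, the members' median log2 ratio was -0.11, -0.08, -0.05 and -0.07 for numbers 1 to 4. With the block, leaving out both libraries numbered 1, 2, 3 or 4 gave 9, 8, 7 and 7 members called lower. These were 11.1%, 9.88%, 8.64% and 8.64% of members, where 5.79%, 5.45%, 3.5% and 3.04% of all tested genes were called lower. Not all of these members were among the 15 called with all pairs. In all 10 fits with the block 5 members passed: COX4I1, COX6B1, UQCRC1, UQCRH and ATP5PD.

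Transcript length moved with the change across the whole transcriptome, and the members are short. The median representative transcript was 963 bases in tested members and 2687 bases over all tested genes. Among other protein-coding genes with transcripts of 500 to 1500 bases and 30 to 300 CPM (620 genes), the median log2 change was -0.08, 84.2% lay below 0 and 18.4% were called lower with the block, against 1.29% called higher. The 48 members in the same range had a median of -0.09, with 97.9% below 0 and 20.8% called lower. Other genes over 3000 bases at the same level (3563 genes) had a median of 0.05, with 34.2% below 0, 5.61% called lower and 18.1% called higher. In this range the share of members called lower was near that of the other genes, as was the share lower in all 4 pairs (52.1% and 45.0%) and the share without overlap, induced below (8.33% and 8.55%). Over 1500 bases at the same level, 19 members had a median of -0.03, with 73.7% below 0 and 15.8% called lower, where 5453 other genes had a median of 0.02, with 45.04% below 0 and 7.17% called lower. The part of length in the members' change was not tested. The median deviations of the 620 other short genes were 0.01, 0.02, 0.03 and 0.12 in non-induced and -0.11, -0.04, -0.02 and 0.02 in induced libraries 1 to 4.

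**Figure D2:**
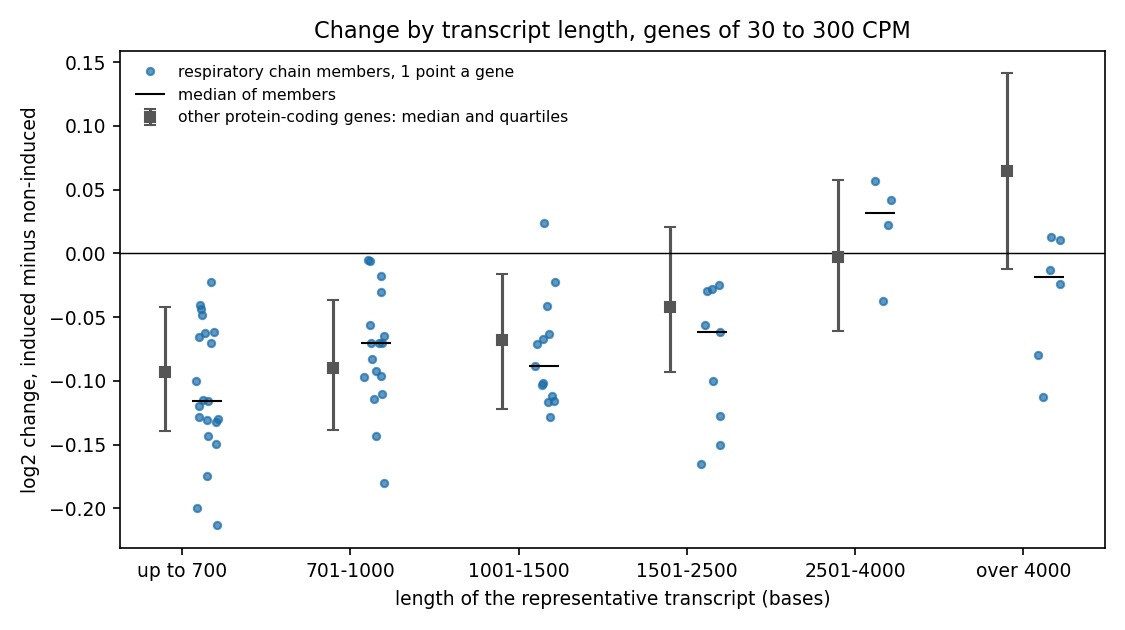
Fitted log2 change without the block (y axis) by length of the representative transcript in bases (x axis), for genes of 30 to 300 CPM; blue points are members with their median as a line, grey squares the median and quartiles of other protein-coding genes. The median of other genes goes from -0.09 in the shortest class to 0.06 in the longest, and members lie mostly in the 3 shortest classes.

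**Figure D3:**
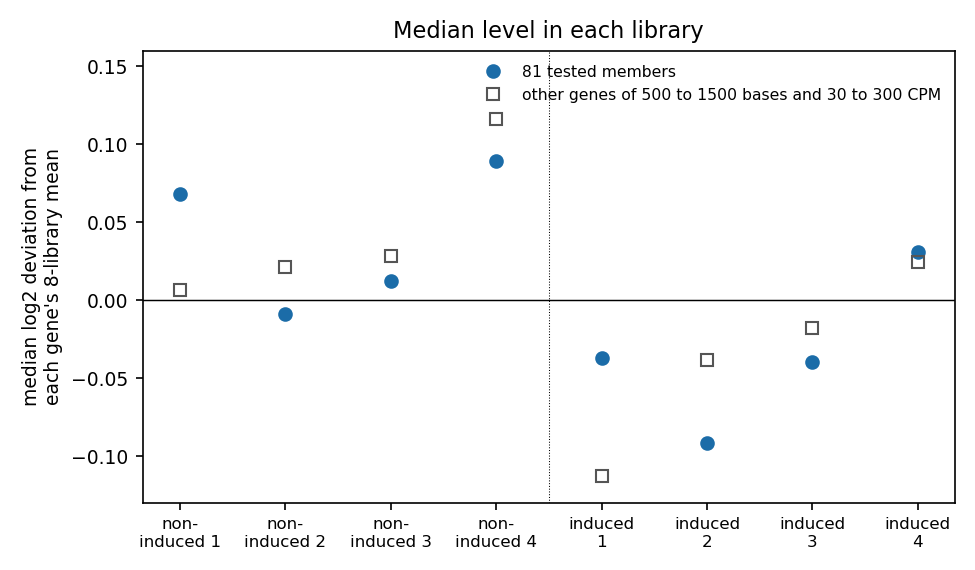
Median log2 deviation from each gene's 8-library mean (y axis) in each library (x axis), for the 81 tested members (circles) and the 620 other genes of 500 to 1500 bases and 30 to 300 CPM (squares). Both sets are highest in non-induced library 4, and libraries of 1 group differ by about as much as the groups do.

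Among the complexes, complex IV had the lowest median and the most called members, a difference between complexes that was not tested. As background, the block called 6.29% of all tested genes lower, and 18.4% of the 620 other short genes described above, of which 84.2% lay below 0. The median log2 change of complex IV was -0.12, with 11 of 12 tested members below 0 and 6 called lower with the block: COX4I1, COX5A, COX5B, COX6B1, COX6C and COX8A. All are nuclear-encoded subunits that surround the catalytic core made from mitochondrial DNA. Summed over the complex, members reached 1355, 1312, 1315 and 1406 CPM in non-induced libraries 1 to 4 and 1232, 1190, 1232 and 1293 CPM in induced libraries 1 to 4. Every induced sum lay below every non-induced one, and the ratio of the group means was -0.12 on the log2 scale.

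COX4I1 (ENSG00000131143, GRCh38 chr16:85798633-85807044, plus strand) had 311, 308, 303 and 322 CPM in non-induced libraries 1 to 4 and 277, 266, 276 and 280 CPM in induced libraries 1 to 4. The groups did not overlap. The fitted log2 change was -0.18 ± 0.034 (SE) with the block (edgeR, adjusted p = 0.0034) and -0.18 ± 0.045 without it (adjusted p = 0.253). COX6B1 (ENSG00000126267, chr19:35648223-35658861, plus strand) had 101, 109, 105 and 118 CPM in non-induced and 87.8, 93.1, 99.5 and 103 CPM in induced libraries. The groups overlapped, although each induced library was below its number's partner. Its log2 change was -0.18 ± 0.040 (edgeR with the block, adjusted p = 0.00996, and 0.49 without it).

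COX5A and COX5B, which lie on the matrix side of the enzyme, went from 137 ± 8.22 to 127 ± 4.25 CPM and from 100.5 ± 3.81 to 91.0 ± 5.32 CPM (SD, n = 4; edgeR with the block, adjusted p = 0.0489 and 0.0277). COX6C went from 78.3 ± 5.96 to 71.7 ± 4.82 CPM and COX8A, a small subunit of the membrane part, from 105 ± 10.3 to 96.4 ± 9.01 CPM (adjusted p = 0.0455 and 0.0419). These 4 passed in 4 to 7 of the 10 fits with the block. The members of complex IV that did not pass included COX7C, at 183 ± 10.7 and 178 ± 7.67 CPM, and COX7A2L, which takes part in joining complexes III and IV, at 99.4 ± 4.38 and 94.6 ± 3.04 CPM. COX6B2, the most variable of all tested members (SD of log2 0.69 over the 8 libraries), was above 3 CPM in both libraries numbered 1 and at most 1.37 CPM elsewhere. Its fitted log2 change of 0.08 turned negative, to between -0.44 and -0.0044, when any 1 of induced library 1 or non-induced libraries 2 to 4 was left out.

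**Figure D4:**
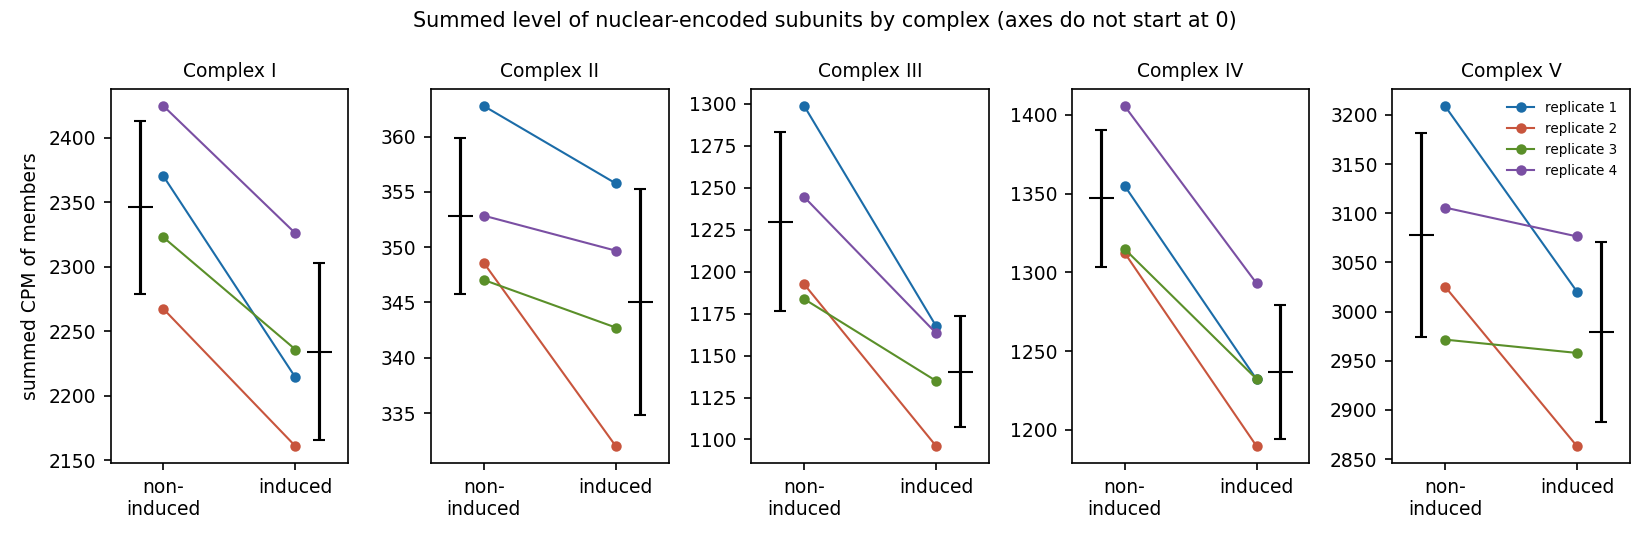
Summed CPM of the members of each complex (y axes, which do not start at 0) in non-induced and induced libraries; lines join libraries of the same number, and bars show the group mean and SD (n = 4). All 20 lines go down, and the groups are separate for complexes III and IV.

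In complex III the ratio was close to that of complex IV. The median log2 change was -0.09 with 9 of 10 members below 0, and 2 were called lower with the block. The background of calls was 6.29% of all tested genes and 18.4% of the 620 other short genes, of which 84.2% lay below 0. The summed level was 1299, 1192, 1184 and 1244 CPM in non-induced libraries and 1167, 1096, 1135 and 1163 CPM in induced libraries 1 to 4, again without overlap. UQCRC1 (ENSG00000010256, chr3:48599002-48610976, minus strand), a core protein on the matrix side of the complex, had 330, 297, 297 and 294 CPM in non-induced and 292, 266, 264 and 263 CPM in induced libraries. All induced values were lower, and library 1 was the highest of each group. The log2 change was -0.17 ± 0.033 (edgeR with the block, adjusted p = 0.0048, and 0.419 without it).

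UQCRH (ENSG00000173660, chr1:46303631-46316776, plus strand) had 195, 173, 172 and 189 CPM in non-induced and 162, 151, 158 and 159 CPM in induced libraries. The groups did not overlap, and the log2 change was -0.21 ± 0.037 (edgeR with the block, adjusted p = 0.0022, and 0.291 without it). Its copy UQCRHL had 12.5 ± 1.70 and 10.6 ± 1.18 CPM, a log2 difference of -0.24 ± 0.080 that did not pass (adjusted p = 0.0626). CYC1, the cytochrome c1 subunit that hands electrons to cytochrome c, had 164 ± 10.3 and 153 ± 7.11 CPM and did not pass. UQCRFS1, the Rieske iron-sulfur protein, had 93.2 ± 3.98 and 97.0 ± 6.89 CPM and was the only member of complex III with a fitted change above 0 (0.06).

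**Figure D5:**
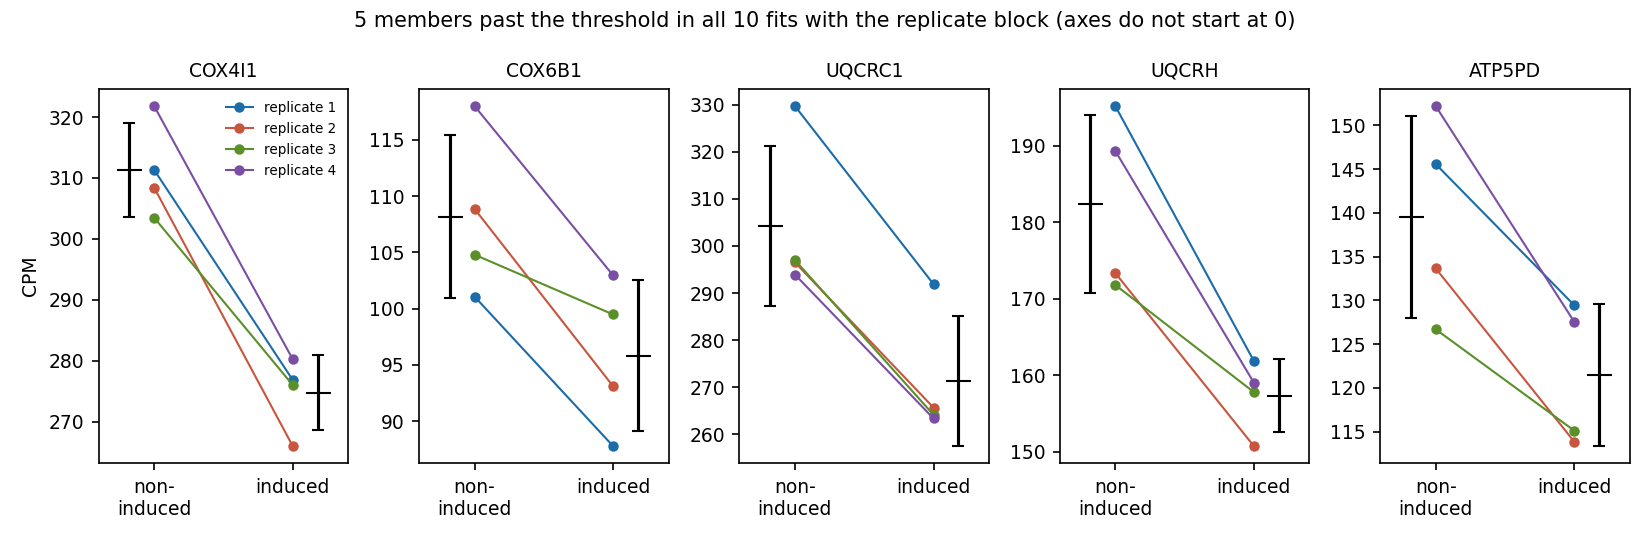
CPM of the 5 members that passed FDR 0.05 in all 10 fits with the block (y axes, which do not start at 0), in non-induced and induced libraries; lines join libraries of the same number, and bars show the group mean and SD (n = 4). Each line goes down, and the groups are separate for COX4I1, UQCRC1 and UQCRH but not for COX6B1 and ATP5PD.

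In the ATP synthase, over 17 tested members, the median log2 change was -0.06, with 14 below 0 (84.2% of the 620 other short genes). With the block 4 were called lower (background 6.29% of all tested genes and 18.4% of the 620 other short genes). They were ATP5MC3, ATP5ME, ATP5MG and ATP5PD, which belong to the membrane part or the stalk. ATP5PD (ENSG00000167863, chr17:75038863-75046985, minus strand), the stator subunit d, had 146, 134, 127 and 152 CPM in non-induced and 129, 114, 115 and 128 CPM in induced libraries. The groups overlapped, with each induced library below its partner, and the log2 change was -0.20 ± 0.037 (edgeR with the block, adjusted p = 0.0034, and 0.438 without it). Of its exon bases 19.1% overlap genes on the opposite strand, among them KCTD2, and whether the counting used strand is not given in the sources used here.

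ATP5MG, subunit g of the membrane part, went from 151 ± 8.48 to 136 ± 6.04 CPM without overlap (edgeR with the block, adjusted p = 0.0153), and did not pass without the pair numbered 4 (adjusted p = 0.0751). ATP5ME, subunit e, went from 57.3 ± 4.31 to 51.7 ± 3.21 CPM (adjusted p = 0.0351), and 61.6% of its exon bases overlap a gene on the opposite strand, MYL5. ATP5MC1, ATP5MC2 and ATP5MC3 encode the same mature c subunit of the rotor ring. Of these only ATP5MC3 passed, from 173 ± 22.7 to 160 ± 23.4 CPM (adjusted p = 0.0429), in 4 of the 10 fits with the block and in none that left out a pair, and the differences among the 3 were not tested. ATP5MC1 had 71.3 ± 3.67 and 69.2 ± 2.22 CPM and ATP5MC2 had 152 ± 7.26 and 146 ± 4.60 CPM. No subunit of the catalytic head passed, and the difference between the parts of the enzyme was not tested: ATP5F1A (alpha) had 578 ± 63.9 and 587 ± 49.5 CPM, and ATP5F1B (beta) had 845 ± 23.8 and 821 ± 12.6 CPM.

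In complex I, the largest set, 34 of 38 tested members lay below 0 (median log2 change -0.07). The share below 0 was 49.8% of all tested genes and 84.2% of the 620 other short genes. In all 4 pairs 14 members were lower (background 17% of all tested genes and 45.0% of the other short genes). With the block 3 were called lower, near the 6.29% of all tested genes (18.4% of the other short genes). DESeq2 called 0 with the block. NDUFA9, an accessory subunit near the ubiquinone site, had 25.9, 22.8, 22.4 and 24.3 CPM in non-induced and 21.2, 20.4, 20.7 and 20.4 CPM in induced libraries, without overlap (log2 change -0.20 ± 0.061, edgeR with the block, adjusted p = 0.039). NDUFB7 went from 73.8 ± 2.64 to 67.5 ± 2.17 CPM, also without overlap (adjusted p = 0.0432). NDUFS5 went from 134 ± 15.05 to 121 ± 8.73 CPM (adjusted p = 0.0363). NDUFA9, NDUFB7 and NDUFS5 did not pass when any 1 pair was left out. The core subunits NDUFS1 and NDUFV1 had 160 ± 4.90 and 159 ± 4.25 CPM, and 179 ± 6.66 and 167 ± 4.50 CPM, and neither passed. NDUFA7 had 0.398, 0.374, 0.654 and 0.538 CPM in non-induced and 0.607, 0.525, 0.905 and 0.735 CPM in induced libraries. This was the largest fitted rise in log2 among the members, 0.49 ± 0.28, on 8 to 19 reads, and it did not pass (edgeR, adjusted p = 0.665, and 0.273 with the block). NDUFA10, the member whose level varied least among libraries (SD of log2 0.034), had 104 ± 2.06 and 102 ± 2.71 CPM.

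Complex II showed the smallest shift. The summed level of SDHA to SDHD was 363, 349, 347 and 353 CPM in non-induced and 356, 332, 343 and 350 CPM in induced libraries, with overlapping groups. SDHA had 145 ± 3.74 and 143 ± 7.59 CPM, SDHB 92.6 ± 4.05 and 90.02 ± 5.23 CPM, SDHC 60.2 ± 7.23 and 60.7 ± 7.70 CPM and SDHD 54.7 ± 1.61 and 51.4 ± 2.45 CPM. None of these 4 passed in edgeR or DESeq2 with or without the block, and none had an unadjusted p under 0.05 in edgeR.

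Promoter sequence is shown for the 6 members called lower whose window holds at least 100 bases free of annotated exons, because nuclear respiratory chain genes are known to share binding sites for a few factors. RefSeq (GRCh38.p14) gave a window of 250 bases before to 50 after the start for 70 of the 90 members and for 12 of the 15 called. The stretches, of 150 bases, run 5′ to 3′ on the gene's strand. They are chr19:14572067-14572216 (minus, NDUFB7), chr15:74938169-74938318 (minus, COX5A), chr2:97645890-97646039 (plus, COX5B), chr19:35648073-35648222 (plus, COX6B1), chr11:63974457-63974606 (plus, COX8A) and chr17:75046986-75047135 (minus, ATP5PD). Capitals mark the letters CCGGAAG, the core bound by ETS factors such as GABP, and GGGCGG, the core bound by SP1, on either strand.
NDUFB7: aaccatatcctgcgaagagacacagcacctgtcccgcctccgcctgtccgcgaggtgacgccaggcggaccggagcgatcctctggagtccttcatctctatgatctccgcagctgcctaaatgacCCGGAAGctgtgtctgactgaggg
COX5A: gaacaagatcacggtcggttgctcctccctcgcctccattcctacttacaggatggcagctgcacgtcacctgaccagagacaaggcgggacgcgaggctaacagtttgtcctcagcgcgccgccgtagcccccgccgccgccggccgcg
COX5B: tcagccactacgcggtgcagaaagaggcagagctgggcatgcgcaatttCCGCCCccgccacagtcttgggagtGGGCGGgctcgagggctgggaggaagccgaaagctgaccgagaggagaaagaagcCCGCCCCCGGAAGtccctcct
COX6B1: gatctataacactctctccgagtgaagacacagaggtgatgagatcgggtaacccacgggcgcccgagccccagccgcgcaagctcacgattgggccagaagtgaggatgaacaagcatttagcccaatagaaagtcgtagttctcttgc
COX8A: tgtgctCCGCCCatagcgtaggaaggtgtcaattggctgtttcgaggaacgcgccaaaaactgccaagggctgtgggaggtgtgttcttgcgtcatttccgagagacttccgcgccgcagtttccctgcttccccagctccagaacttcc
ATP5PD: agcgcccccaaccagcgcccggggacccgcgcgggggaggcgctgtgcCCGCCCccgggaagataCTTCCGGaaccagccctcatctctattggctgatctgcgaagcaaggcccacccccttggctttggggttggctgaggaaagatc
In these stretches NDUFB7 holds the ETS letters once, COX5B holds them beside SP1 letters, COX5A and COX6B1 have neither, COX8A holds SP1 letters alone, and ATP5PD holds the ETS letters downstream of SP1 letters. Over the whole 300-base windows COX6B1 and COX8A also have an ETS match, 12 and 18 bases before the start, and COX5A has SP1 matches.

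Matches to CCGGAAG on either strand lay in the windows of 9 of the 12 called members (75.0%) and 11 of the 58 other members (19.0%). Of the 15842 protein-coding promoters 14.2% held a match, and of the 8436 tested genes not called 20.2%, and matches lay in 117 of the 710 promoters of all genes called lower with the block and in 148 of the 927 of genes called higher. Letters of the NRF1 site, which are GCGC, then any base and T, then GCGC, were in 3 of the called and 14 of the other members (24.1%) against 8.6% of all promoters and 12.2% of tested genes not called. Letters of the YY1 site, AAGATGG, were in 33.3% and 20.7% against 6.4% and 7.8%. GGGCGG was in 58.3% and 60.3% against 58.5% and 70.5%. The motifs' matches did not overlap each other in the stretches printed, the called set is small, and the shares were not tested. A match describes letters only and shows no binding.

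The genes that build or serve the chain were read in short lists. Over all tested genes 6.29% were called lower and 7.51% higher with the block, and no list was tested against these shares. The share of all genes at an unadjusted p under 0.05 with the block was not counted. Counts of list members at that threshold therefore have no background. The assembly factors of complex I (18 tested) had a median log2 change of -0.05 with 0 called in edgeR, with 1 at an unadjusted p under 0.05 in the block fit and 0 called in DESeq2. Those of complexes II and III (10 tested, median -0.02) had 0 called in edgeR and DESeq2, and 0 at an unadjusted p under 0.05 in edgeR with or without the block. Among 20 tested complex IV assembly factors (median -0.01) 1 was called lower with the block, CMC2, which went from 40.6 ± 2.72 to 35.7 ± 2.46 CPM (edgeR, adjusted p = 0.0174). Among 7 factors of the ATP synthase 1 was called higher, ATPAF1, a chaperone of the beta subunit, which went from 43.1 ± 1.44 to 49.0 ± 2.14 CPM (adjusted p = 0.0223).

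Mobile carriers and channels (14 tested, median -0.04) had 2 called lower and 1 higher with the block (background 6.29% lower and 7.51% higher). VDAC1, the main channel of the outer membrane, had 323, 323, 331 and 335 CPM in non-induced and 270, 304, 299 and 292 CPM in induced libraries, without overlap (edgeR, adjusted p = 0.0074). SQOR, which feeds electrons from sulfide to ubiquinone, went from 20.7 ± 2.95 to 16.03 ± 3.58 CPM (adjusted p = 0.0085). GPD2, the glycerol phosphate shuttle enzyme, went from 53.7 ± 16.79 to 61.9 ± 18.3 CPM (adjusted p = 0.0092) and was lowest in both libraries numbered 1.

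The 13 protein genes of mitochondrial DNA had a median log2 change of -0.03, with 0 called in edgeR and DESeq2 with or without the block. At an unadjusted p under 0.05 with the block 3 were lower and 2 higher, counts without a background. MT-CO2, a catalytic subunit of complex IV and the member of that list with the smallest p, had 2103 ± 241 and 1951 ± 208 CPM (edgeR with the block, adjusted p = 0.092). Of 14 citric acid cycle genes (median -0.01) 0 were called in either tool. With the block 4 were lower and 1 higher at an unadjusted p under 0.05, again without a background. IDH3B had the smallest p of these, at 185 ± 12.9 and 171 ± 7.17 CPM (adjusted p = 0.0586).

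Among 13 regulators of mitochondrial biogenesis (median 0.03) 2 were called lower with the block and 0 higher (background 6.29% lower and 7.51% higher). ESRRA, a nuclear receptor known to act on respiratory genes, had 46.6, 52.2, 52.8 and 50.2 CPM in non-induced and 36.9, 48.3, 44.7 and 41.1 CPM in induced libraries (edgeR, log2 change -0.24 ± 0.048, adjusted p = 0.005, and 0.427 without the block). Its groups overlapped through induced library 2 alone. TFB1M, a mitochondrial rRNA methyltransferase, went from 21.8 ± 6.12 to 17.98 ± 3.20 CPM (adjusted p = 0.0235). Named after their values were seen, NRF1 had 23.7 ± 1.96 and 25.7 ± 1.43 CPM and GABPA 36.0 ± 1.54 and 38.0 ± 3.26 CPM, and neither passed (adjusted p = 0.181 and 0.372). Among the cell type markers PODXL (2.64 ± 0.63 to 3.72 ± 0.46 CPM, adjusted p = 0.035) and the mesangial marker PDGFRB (11.9 ± 0.81 to 15.2 ± 2.22 CPM, adjusted p = 0.0299) were called higher with the block. PODXL was the only podocyte marker called: of the 7 tested 4 lay above 0 and 3 below. The 11 podocyte markers summed to 3601 to 4616 CPM in non-induced and 3458 to 4505 CPM in induced libraries, lower in all 4 pairs. The median log2 change of the 7 tested was 0.06. A sum mostly follows the genes with the most reads, and PODXL made up little of this one. The endothelial marker VWF (0.464 ± 0.145 and 0.703 ± 0.298 CPM) and the leukocyte marker CSF1R (1.86 ± 0.233 and 1.19 ± 0.265 CPM) did not pass, and the part of any other cell type in the members' change was not tested.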

How the data were processed

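RNA was measured in 4 non-induced and 4 induced libraries as single reads of 75 bases. Per the submitters' processing notes the tools were bcl2fastq, Trimmomatic 0.38, HISAT2 2.1.0, HTSeq 0.11.1 and DESeq2 1.24.0, with builds hg38 and GRCh38. Not given in the sources used here were their order, whether counting used strand, the handling of reads in more than 1 gene and the release of the annotation. Deposited by the authors were raw read counts per Ensembl gene, used here, and a normalized table, not used here. Of 58395 genes 58275 matched GENCODE 29.

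Genes were kept by filterByExpr (minimum count 10), scaled by TMM and tested with edgeR 4.0.16 (R 4.3.3; quasi-likelihood, robust, two-sided, Benjamini-Hochberg FDR 0.05 over 15637 genes). CPM values use TMM-scaled totals. A gene at 0 could have had up to 3 reads, 0.13 to 0.178 CPM, for counting error only. Since the labels do not say that replicates were separate cultures, each p-value covers only the spread between these samples, which may be technical. Deviations from the group means over 11502 genes correlated at 0.911, 0.704, 0.707 and 0.648 between same-numbered libraries (other pairs -0.775 to 0.667), so the numbers were taken as pairs from the data, and the fit with a replicate block is given where it changed a call. Both libraries numbered 1 stood apart (CRB2 was lowest there in each group), which can raise these correlations.

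Members follow from their symbols. Members, lists and tests were chosen with earlier results of these data known. Named genes were CRB2, every called member, the 3 smallest p and the highest and lowest levels per length in each complex, paralogs, SDHA to SDHD, the most and least variable members and up to 3 called genes, or the 1 with the smallest p, of each other list. UQCRFS1, CYC1, NDUFS1, NDUFV1, NDUFV2, NDUFB8, NDUFA13, ATP5F1A and AP005263.1 were named after their values were seen. Alternatives were other scalings and filters, DESeq2 1.42.0, the block, and left-out libraries. Fits were tested on simulated data in which libraries of the same number shared an effect. That run cannot show whether the numbers mark pairs here, and it held no effect of transcript length. Levels per kilobase use 1 representative GENCODE transcript per gene.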

Additional observations from a re-analysis of the deposited data

Results flagged for a closer look

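In 92 groups of 4 libraries (the named members, the summed levels and CRB2, each in both groups), 1 library stood far from the other 3 in 8 cases. Chance flags about 1 group in 20. The libraries numbered 1 account for 6 of them. UQCRC1 was high in non-induced library 1, at 330 CPM against 294 to 297 in the others, and in induced library 1, at 292 CPM against 263 to 266. COX6B2 was high in the same libraries, at 3.03 CPM against 1.03 to 1.32 and at 3.24 CPM against 1.00 to 1.37. COX5B was low in non-induced library 1, at 94.8 CPM against 102 to 103, and high in induced library 4, at 98.9 CPM against 87.1 to 89.1. ATP5ME was high in non-induced library 4, at 63.8 CPM against 54.5 to 55.6. CRB2 was low in induced library 1, at 1734 CPM against 4252 to 4599.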

How the results depend on the processing

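The replicate block changed the calls. Genes called rose from 6 to 2159 with the block (2150 with RLE, 2208 with upper-quartile and 2199 with library-total scaling, 1048 with DESeq2, and 2067 without robust estimation, the last chosen after seeing the data), and members called from 0 to 15 (17, 19, 14, 5 and 13 in the same order). In the block fits with upper-quartile scaling more genes were called lower than higher (1132 and 1076), unlike with TMM (984 and 1175). Without the block, no filter gave 37 genes and DESeq2 188 genes and 1 member. Leaving out 1 library gave 3 to 16 genes and 0 members, and leaving out both libraries numbered 1, 2, 3 or 4 with the block gave 1721, 1969, 1254 and 909 genes and 9, 8, 7 and 7 members. Leaving out both libraries numbered 1 without the block gave 543 genes and 2 members, COX4I1 and UQCRC1. The members' median log2 change stayed negative in every alternative run, from -0.107 to -0.058 with 1 library left out, and moved by more than the spread to -0.10 without non-induced library 2 and to -0.11 without induced library 4. No scaling moved the median of all genes by over 0.1. The sign turned for members with changes near 0. With 1 library left out COX6B2 (0.08) ranged from -0.44 to 0.59, SDHC (0.01) from -0.083 to 0.10, NDUFA4 (-0.03) from -0.070 to 0.014 and SDHA (-0.02) from -0.055 to 0.0060. COX6B2 was negative, at -0.093, -0.092 and -0.0044, without non-induced libraries 2, 3 and 4, and SDHC was at -0.022, -0.033 and -0.0059 there. Without both libraries numbered 2, NDUFA4 went to 0.0057 and SDHA to 0.0033. ATP5MC1 went to 0.0026 with the block and 0.0020 without it when both libraries numbered 1 were left out. The cause was not tested. Counting NDUFA4 with complex IV, or leaving out readthrough genes and copies, kept the medians by complex within the spread. These checks used the fit without the block, which called 0 members, so they could not show a change in calls. The calls with the block were not recounted by complex under these memberships.

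Members with few reads (NDUFA7, NDUFV2, COX6B2) and members sharing sequence or exons with another gene (such as UQCRH, UQCRHL, NDUFB8, NDUFA13 and ATP5PO) are limited by depth and by the counting. Among called members, same-strand genes cover 34.5% of the representative transcript of COX8A, 17.6% of that of ATP5MG, 11.8% of that of NDUFA9 and 1.7% of that of ATP5MC3. Most member calls were made only with the block, and the labels do not state the pairing; COX4I1 and UQCRC1 were also called in a fit without it.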
